A study of Rattus norvegicus with 3 samples.

Results

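The comparison described here asks where liver DNA of newborn rats gave more methylated DNA when the dam was fed a low protein diet (MLP) than when the same low protein diet was supplemented with folic acid (MLP-F). Its members are all regions on chromosomes 1 to 20 of the deposited MLP vs. MLP-F list, 31671 of the 33730 regions of that list and of the 95306 regions in the 3 lists of the study. All livers came from male Wistar rats on postnatal day 1. The MLP and MLP-F diets both held 9% casein, and folic acid was raised from 1 mg/kg in MLP to 5 mg/kg in MLP-F. The control diet (C), used here only for side-by-side values, held 18% casein and folic acid at 1 mg/kg. DNA of several pups was pooled into 1 library per group (6 animals by the sample labels, 8 by the text of the paper), and the pups of a group came from 1 litter, so that diet, litter and library cannot be told apart. With 1 library on each side there was no replicate error and no test of diet. Every number below describes these libraries, and the intervals given cover counting error only. A region list holds no expression, so the tissue label was not checked against liver markers.

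DNA methylation is the addition of a methyl group to cytosine, in mammals mostly where cytosine is followed by guanine (CpG). It is copied at cell division by the maintenance enzyme Dnmt1, and the methyl groups come from S-adenosylmethionine, which is formed in the one-carbon cycle that folate feeds and that is very active in liver. In MBD-seq a methyl-CpG binding protein domain captures methylated fragments, which are then sequenced. A fragment with many methylated CpGs is captured more readily, and all copies of a repeated sequence contribute to the capture. By the paper's methods, a read pair that matched several places was kept at its best match or discarded. The authors' MACS run took the MLP library as treated and the MLP-F library as its control, and each region carries a score of 10 times the −log10 of its p. All regions of this list are therefore regions of higher signal in MLP. Regions higher in MLP-F were not analysed here.

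Short tandem repeats were named beside many of the strongest regions, and their units are shown because they differ in whether a copy holds the CpG that the capture protein binds. Names of genes and repeats were taken from the study's annotation of its FDR-selected regions, which covered 611 of the 31671 regions (1.93%). Of these, 42 were annotated for MLP vs. MLP-F itself and a further 569 for MLP vs. C alone, so that the second set was picked for its MLP vs. C score. The annotation gives the nearest gene, and a region named here need not lie inside that gene. It also gives the nearest repeat, which need not lie inside the region. Each unit is written here as 3 copies in a row, 5′ to 3′, with CG in capitals. The regions shown with a CG unit also named units without CG, which are left out, for example TACTG beside Gpam and CTGTG beside Vti1a. The strand was not given, and CG reads the same on both.
RGD1306565, chromosome 1: cactgcactgcactg
Mlph, chromosome 9: gagtggagtggagtg
Atl1, chromosome 6, and Cd28, chromosome 9: cacaccacaccacac
Gpam, chromosome 1, first unit: CGgtgCGgtgCGgtg
Gpam, chromosome 1, second unit: taCGgtaCGgtaCGg
Vti1a, chromosome 1: CGctgCGctgCGctg
Begain, chromosome 6: CGgCGgCGg
LOC498276, chromosome 13, first unit: ctCGctCGctCG
LOC498276, chromosome 13, second unit: tcCGtcCGtcCG
Unnamed region, chromosome 17: CGggCGggCGgg
Fam83b, chromosome 8: aggtgaggtgaggtg
A tandem repeat of any kind was named beside each of the 42 regions annotated for this comparison, except those of Mbrl and Orai1. This includes all of the 20 highest-scoring regions. The share naming any tandem repeat was not counted over all annotated regions. Among those with lower scores some named one, as at Ptpn2 and Ctla4, and some did not, as at Ptprc and E2f7. Of the 42, 20 named at least 1 simple unit of the kind shown. A unit with CG stood beside 5 of them (Gpam, Vti1a, Begain, LOC498276 and the unnamed region on chromosome 17), and the units of the other 15 had none. Over all 611 annotated regions, 92 named a simple unit, 16 with CG and 76 without.

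Most regions of the list were close to the lower limit of the call. The deposited lists are cut by p, and the paper's FDR limit was far stricter. At that limit the paper kept only a small part of the MLP vs. MLP-F list and reported no differentially methylated region for MLP-F vs. C. The scores ran from 50 to 3100, with a median of 81.4 and quartiles of 61.9 and 125, and 171 regions shared the commonest score of 50.12. A score of 50 to under 100 was held by 20182 regions (63.7%, 95% Wilson interval 63.2 to 64.3) and 100 to under 200 by 8209 (25.9%). From 200 to under 500 there were 2920 regions (9.22%), and from 500 to under 1000 there were 288 (0.909%). Only 72 regions (0.227%, 0.181 to 0.286) reached 1000.

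The upper part of the list was fuller than in the other comparisons. A score of at least 200 was reached by 3280 regions (10.4%) in MLP vs. MLP-F, by 2125 (6.23%) in MLP vs. C and by 541 (2.23%) in MLP-F vs. C. The median scores were 81.4, 77.0 and 69.3, in the same order. At 1000 or more the counts were 72, 66 and 5. The first 2 lists were thus nearly equal in their strongest regions and differed more in the range of 200 to 1000. The lists share libraries, and a score also grows with the number of reads, which differed between the libraries as given with the processing. The part of depth in these differences was not tested.

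**Figure D1:**
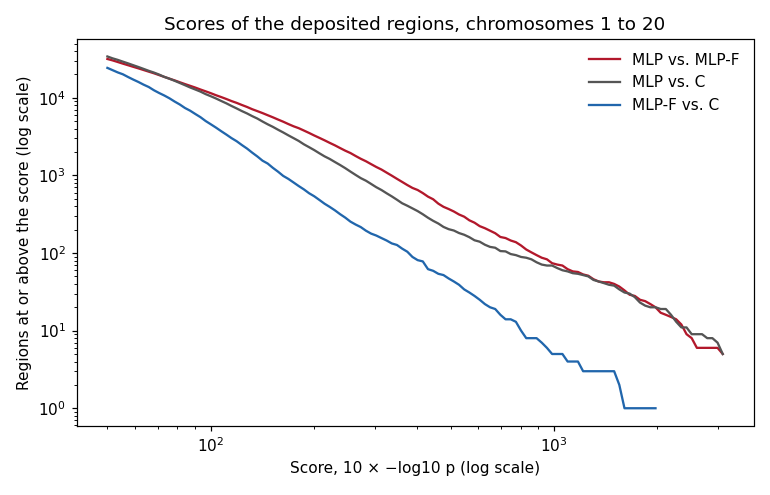
Number of regions on chromosomes 1 to 20 (vertical axis, log scale) at or above each score (horizontal axis, 10 times the −log10 p, log scale), with 1 line for each list. The MLP vs. MLP-F line lies above the MLP vs. C line at a score of 200, with 3280 against 2125 regions, and the lines meet again near 1000, with 72 against 66.

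The highest score of the list, 3100, was held by 5 regions. The first lay in an intron of RGD1306565, listed by RefSeq as a synonym of Map3k5, a kinase of stress signalling (chromosome 1, 15324363 to 15329424, rn4, 5062 bp). It scored 3100 in MLP vs. C and 184 in MLP-F vs. C. The second was annotated as downstream of Acadm, the medium-chain acyl-CoA dehydrogenase of mitochondrial fatty acid oxidation (chromosome 2, 251899516 to 251902669). Acadm likewise scored 3100 in MLP vs. C, and 134 in MLP-F vs. C. Surf6, a nucleolar protein of ribosome assembly (chromosome 3, 5790883 to 5793008, intronic), scored 2264 in MLP vs. C and was not listed in MLP-F vs. C. Mlph, melanophilin, which links pigment granules to their motor protein (chromosome 9, 90088630 to 90091720, downstream), scored 3100 in MLP vs. C. The fifth, LOC689904 on chromosome 9 (downstream), scored 2732 there. Neither of these was listed in MLP-F vs. C.

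Among the 20 highest scores, 4 overlapped a region listed in MLP-F vs. C, all at low scores there. These were RGD1306565 and Acadm, Strap with 112 and Sfmbt1 with 61.1. The share with such an overlap over all regions was not counted. Strap, a partner of TGF-beta receptors (chromosome 4, upstream), scored 2551 in MLP vs. MLP-F and 3100 in MLP vs. C. Sfmbt1, a polycomb-associated protein with MBT repeats (chromosome 16, 6176260 to 6178343, intronic), scored 2030 and 2905. For these 4 genes every comparison thus listed a region at the same place, with MLP-F vs. C the lowest. The MLP-F vs. C region overlapped the others but had a different start or end.

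Other strong regions scored much more in MLP vs. MLP-F than in MLP vs. C. They were annotated for their MLP vs. MLP-F score, so lower scores in MLP vs. C are in part fixed by that choice. Thap1, a zinc finger transcription factor (chromosome 16, 70263242 to 70264596, upstream), had 2402 against 475. Cd28, the costimulatory receptor of T cells (chromosome 9, 59336141 to 59337909, upstream), had 1987 against 583. Atl1, a GTPase that shapes the endoplasmic reticulum (chromosome 6), had 2528 against 1487. Begain, a synaptic protein (chromosome 6, intronic), had 1811 against 258. The difference was widest for an unnamed region of 3506 bp on chromosome 1 (67550196 to 67553701), which scored 3014 and was not listed in MLP vs. C. Mbrl, current symbol Tmem259 (chromosome 7, 11241190 to 11245662, downstream, score 1733), and Vti1a, a SNARE protein of vesicle fusion (chromosome 1, intronic, score 1551), were likewise absent from the MLP vs. C list. None of these 7 regions was listed in MLP-F vs. C, and the share absent over all regions was not counted.

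A further set scored less in MLP vs. MLP-F than in MLP vs. C. Besides Strap and Sfmbt1 it held Zfyve9, which recruits SMAD proteins to the TGF-beta receptor (chromosome 5, intronic, 1920 against 2514), and Mre11a, now Mre11, which trims broken DNA ends for repair (chromosome 8, intronic, 1718 against 2499). Some regions had one and the same score in both lists. Gpam, the mitochondrial acyltransferase that starts glycerolipid synthesis (chromosome 1, 261416653 to 261417934, downstream), had 2285 in each. A U6 small nuclear RNA entry on chromosome 19 had 2170 in each, and Fam83b on chromosome 8 had 1624 in each. Polr1a, the catalytic subunit of the polymerase that transcribes ribosomal RNA (chromosome 4, intronic), had 2103 against 1552. The scores of both lists rest on the same MLP library, so they are not independent measurements.

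**Figure D2:**
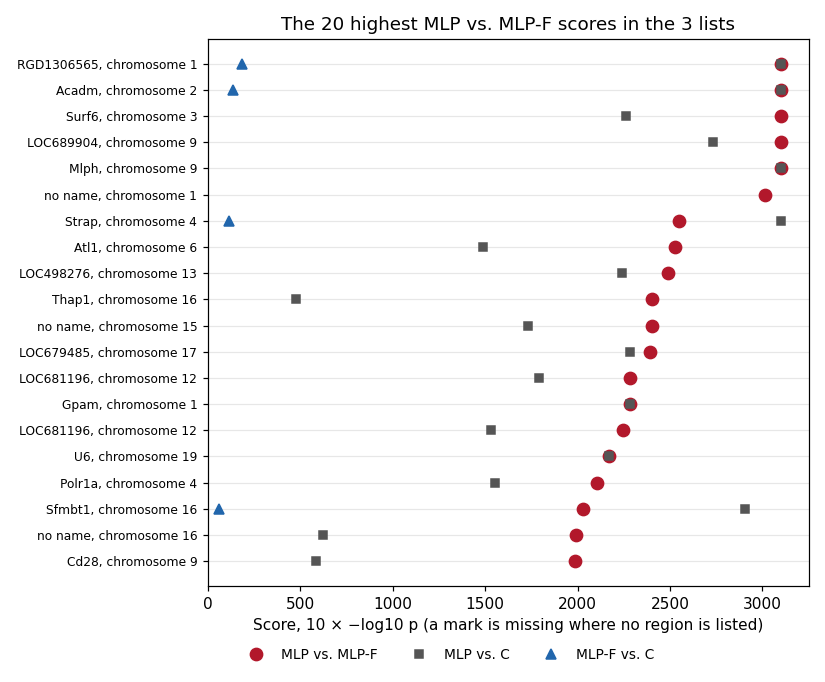
Scores (horizontal axis, 10 times the −log10 p) of the 20 regions with the highest MLP vs. MLP-F score, by nearest annotated gene and chromosome, in MLP vs. MLP-F (circles), MLP vs. C (squares) and MLP-F vs. C (triangles). Triangles stand at 61.1 to 184 for Sfmbt1, Strap, Acadm and RGD1306565 and are missing for the other 16 regions, and the square for Thap1 stands at 475 against a circle at 2402.

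The strongest regions were spread over many chromosomes. Regions of 1000 or more were most numerous on chromosome 1 (12), followed by 7 (8), 9 and 16 (7 each) and 12 (6), and chromosomes 11 and 14 held none. The highest score on chromosome 11 was 993 and on chromosome 14 it was 886, both at regions with no annotation. Of the 72 regions, 51 had an annotation.

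Regions were mostly shorter than 1 kb. The median length was 722 bp (quartiles 543 and 958), against 670 bp in MLP vs. C and 655 bp in MLP-F vs. C, and the mean was 797 ± 389 bp (SD over the 31671 regions). Lengths of 500 to under 1000 bp were found in 18505 regions (58.4%), shorter ones in 6277 (19.8%), 1000 to under 2000 bp in 6470 (20.4%) and 2000 bp or more in 419 (1.32%). Together the regions covered 25.2 Mb, or 0.987% of the 2557 Mb spanned by the 20 chromosomes.

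Higher scores went with longer regions. The median length was 667 bp at scores of 50 to under 100, 799 bp at 100 to under 200, 921 bp at 200 to under 500, 1064 bp at 500 to under 1000 and 1430 bp at 1000 or more. A score of at least 200 was held by 3.90% of regions under 500 bp and by 38.7% of those of 2000 bp or more. Spearman's rho between length and score was 0.26 across the regions, against 0.17 in MLP vs. C and 0.08 in MLP-F vs. C. Length and score come from the same reads, and regions are not replicates.

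**Figure D3:**
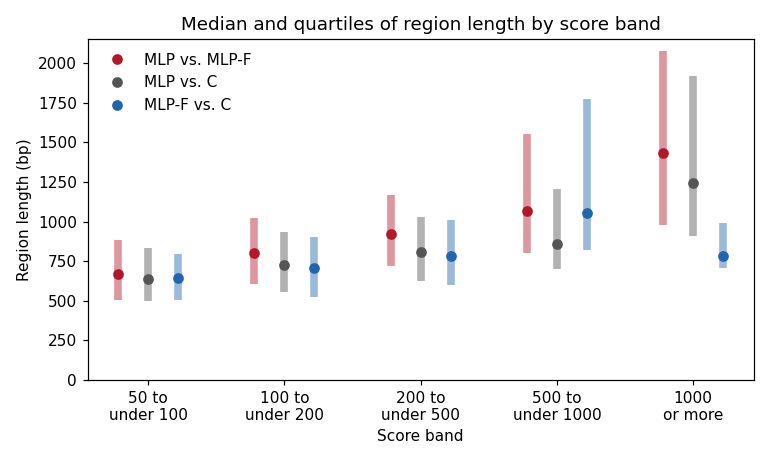
Region length in bp (vertical axis) by score band (horizontal axis) for each list, where points are medians and bars run from the first to the third quartile. In MLP vs. MLP-F the median rises from 667 bp in the lowest band to 1430 bp in the highest.

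The longest regions had scores from 51.7 to 3100. The longest covered 12223 bp of chromosome 7 (114203837 to 114216059) with a score of 439, and the next 8876 bp of chromosome 6 (137765578 to 137774453) with 113. A region of 6620 bp on chromosome 20 (19368440 to 19375059) scored 62.8. The 10 longest also held the RGD1306565 region with the score of 3100 and a region of 5014 bp on chromosome 17 (4283267 to 4288280) with 1183. Among the 10 longest, the RGD1306565 region was the only one that carried an annotation. It and a region of 5336 bp on chromosome 18 (35797590 to 35802925, score 169, MLP vs. C 150) were also the only ones that overlapped a region of MLP vs. C. The other 8 were listed in neither comparison with C. The share over all regions was not counted, so nothing about long regions is read from this. At the other end, the shortest region measured 230 bp (chromosome 2, 112227457 to 112227686, score 73.4).

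Density differed between chromosomes, with chromosome 12 far above the rest. It held 1251 regions, or 26.7 per Mb (exact Poisson interval 25.3 to 28.3), against 12.4 per Mb over all 20 chromosomes. Chromosomes 20, 19 and 10 followed with 18.9, 17.0 and 16.8 per Mb. These 4 chromosomes made up 10.6% of the length and held 5165 regions (16.3%). The lowest densities were 9.70 per Mb on chromosome 2 and 9.71 on chromosome 15, whose intervals overlapped (9.32 to 10.1 and 9.13 to 10.3). Density followed length only weakly, with a Spearman's rho of -0.31 over the 20 chromosomes. The short chromosomes 11, 15, 16, 17 and 18 lay below the overall density (9.71 to 11.6 per Mb), and the longest, chromosome 1, had 12.7.

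The order of the chromosomes was not the same in the other lists. Chromosome 12 was also the densest in MLP vs. C (24.5 per Mb) and in MLP-F vs. C (15.0). On chromosomes 5, 10 and 12 there were more regions per Mb in MLP vs. MLP-F than in MLP vs. C, although the MLP vs. MLP-F list is the shorter one. Chromosome 5 had 13.5 per Mb in MLP vs. MLP-F, 12.4 in MLP vs. C and 7.56 in MLP-F vs. C, the lowest of the 20 chromosomes in that last list. Chromosome 15 stood at the opposite side, with 9.71, 12.1 and 9.78. The density of chromosome 5 in MLP vs. MLP-F was 1.78 times that in MLP-F vs. C, and for chromosome 15 the ratio was 0.993.

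**Figure D4:**
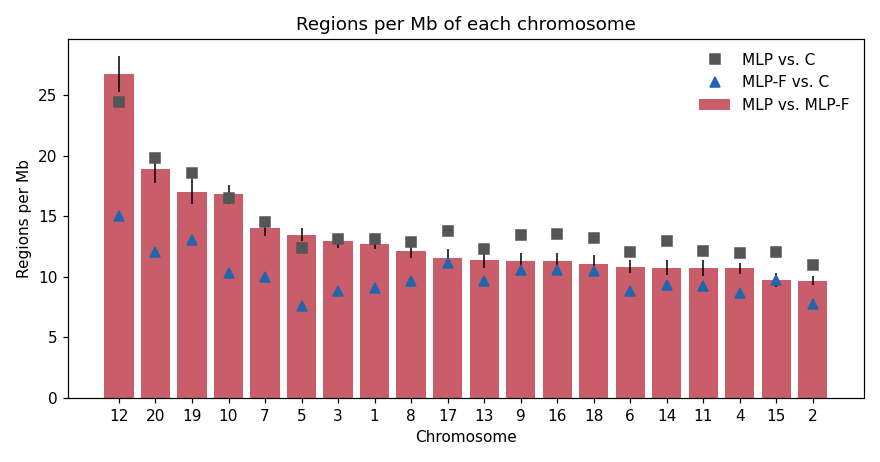
Regions per Mb (vertical axis) on each chromosome (horizontal axis, in order of MLP vs. MLP-F density) for MLP vs. MLP-F (bars, with exact Poisson 95% intervals for counting error), MLP vs. C (squares) and MLP-F vs. C (triangles). Chromosome 12 stands at 26.7 per Mb, and on chromosomes 5, 10 and 12 the bar exceeds the square.

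The share of strong regions varied less than the density. A score of at least 200 was held by 11.95% of the regions on chromosome 1 and by 7.997% on chromosome 9, the highest and lowest of the 20. Chromosome 12, with the most regions per Mb, had 9.51%. Chromosome 9 nevertheless held 7 of the regions of 1000 or more, among them LOC689904, Mlph, Cd28 and Cops8, a subunit of the COP9 signalosome (upstream, 1483, MLP vs. C 1769).

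Regions were denser toward chromosome ends. The last 10 Mb of the chromosomes held 17.3 regions per Mb and the first 10 Mb 13.8, against 11.8 between them. The last 10 Mb were denser than the whole chromosome on 15 of the 20. The median score was 78.2 in the last 10 Mb, 82.4 in the first and 81.7 between. In MLP vs. C the last 10 Mb scored 77.6 against 76.9 between, and in MLP-F vs. C 70.2 against 68.8, the opposite direction. In MLP vs. C the densities were 18.9, 14.2 and 12.7 per Mb and in MLP-F vs. C 13.96, 9.45 and 9.10, for the last 10 Mb, the first 10 Mb and between.

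The gap from one region to the next had a median of 41.0 kb, with quartiles of 13.8 and 100.2 kb. Of 31651 gaps, 6349 (20.1%) were 10 kb or less and 1066 (3.37%) were 1 kb or less, while 21 were over 1 Mb. The widest spanned 1742 kb of chromosome 6 (138932883 to 140674597). A second region lay within 1 kb of 6.04% of those scoring 50 to under 100, of 8.46% at 200 to under 500, of 10.4% at 500 to under 1000 and of 19.4% of the 72 at 1000 or more. Within 10 kb the shares were 33.6%, 37.2%, 42.4% and 38.9%, with no steady rise. A long enriched stretch that was called in pieces would be counted here as neighbours.

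Joining regions 5 kb or less apart gave 3038 groups of at least 2 regions, which held 6793 regions (21.4%). The largest groups had 9 regions. One covered 29.2 kb of chromosome 10 (14622186 to 14651373) with scores of 59.2 to 497, and one 24.8 kb of chromosome 5 (159875800 to 159900565) with scores of 50.6 to 454. Each held 5 regions of MLP vs. C and none of MLP-F vs. C. A group of 8 covered 19.5 kb of chromosome 20 (5337711 to 5357187), where MLP vs. C listed 2 regions. A group of 7 on chromosome 10 (108037972 to 108057035, scores 59.3 to 159) had no region in either comparison with C. These groups were chosen by their MLP vs. MLP-F counts, so lower counts in the other lists are in part fixed by that choice. A close group with high scores lay beside LOC498276 on chromosome 13 (86953449 to 86964047). It had 4 regions no more than 1 kb apart, with a median score of 762 and a highest score of 1767, and CG-containing repeat units were named there, as shown above.

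Counted in 2570 bins of 1 Mb, the regions were unevenly spread. The median bin held 10 regions and the mean was 12.3, with a variance 5.90 times the mean, and 5 bins were empty. Bins at or above the 99th percentile, 42 regions, were called dense. There were 28 of them (1.09% of bins) with 1342 regions (4.24%, Wilson interval 4.02 to 4.46). Chromosomes 1 and 20 had 5 dense bins each, chromosome 5 had 4, chromosomes 7 and 12 had 3, and 3 and 10 had 2. Chromosomes 15, 16, 17 and 19 had 1 each. Of the 28, 8 lay in the last 10 Mb of a chromosome, which make up 7.82% of the length, and a further 5 in the first 10 Mb.

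The densest bin, at 10 to 11 Mb of chromosome 7, held 67 regions with a median score of 96.2 and a highest of 976. MLP vs. C had 38 regions there and MLP-F vs. C had 6. Its one annotated gene was Dot1l, the histone H3 lysine methyltransferase. The next bin on the same chromosome held 59 regions (43 and 11 in the other lists), with Mbrl at 1733 and Atp5d, a subunit of ATP synthase. A bin at 95 to 96 Mb of chromosome 1 held 64 regions (32 and 6), of which 5 reached 200. Beside it, the bin at 96 to 97 Mb held 47 (44 and 11) and included Fgf21, a hormone that liver secretes in fasting.

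Chromosome 20 had 4 dense bins in a row, from 3 to 7 Mb, with 47, 59, 62 and 44 regions. MLP vs. C had 17, 32, 41 and 36 there and MLP-F vs. C 3, 15, 13 and 12. The bin from 5 to 6 Mb held Nudt3, a diphosphoinositol phosphatase (1170, MLP vs. C 1269), and Grm4, a glutamate receptor (554, MLP vs. C 125). A bin of chromosome 5, from 156 to 157 Mb, held 48 regions (38 and 14), and Rap1gap and Usp48 were annotated in it. The 2 other lists had fewer regions in all of these bins.

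Regions in dense bins scored slightly more than the rest. Their median score was 88.2 against 81.2 in the other bins, and 13.1% against 10.2% reached 200. The median gap was 11.2 kb in dense bins and 43.4 kb elsewhere, a difference that follows from choosing the bins by their number of regions. Of the 72 regions of 1000 or more, 4 (5.56%) lay in a dense bin, near the 4.24% of all regions. In the same 28 bins MLP vs. C had 855 regions, 2.51% of its list and 17 to 44 a bin, and MLP-F vs. C had 340, 1.40% of its list and 3 to 21 a bin. The bins were selected on the MLP vs. MLP-F counts, so their being lower in the other lists is in part fixed by that choice. The single densest bin of each other list was none of these 28. In MLP vs. C it was 8 to 9 Mb of chromosome 14, with 51 regions against 23 in MLP vs. MLP-F. In MLP-F vs. C it was 49 to 50 Mb of chromosome 17, with 46 regions against 3.

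**Figure D5:**
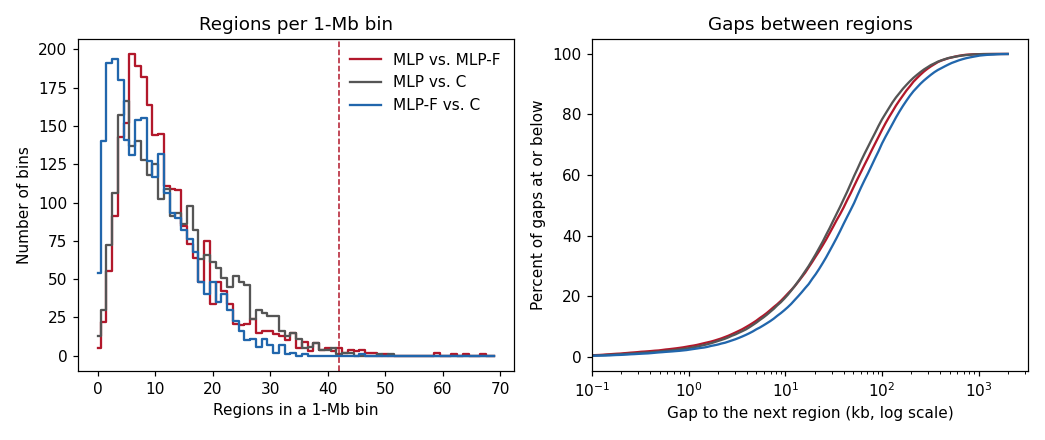
Left, number of 1-Mb bins (vertical axis) by regions per bin (horizontal axis), where the dashed line marks the dense bins of MLP vs. MLP-F at 42 regions. Right, percent of gaps at or below each gap length (kb, log scale), and in both panels lines stand for the 3 lists. The MLP vs. MLP-F line on the left reaches 67 regions, against 51 in MLP vs. C and 46 in MLP-F vs. C.

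Gene groups could be followed only over the 611 annotated regions, whose median score was 110, against 81.4 for all regions. Of 362 genes in 9 groups, those annotated accounted for 30 regions, of which 10 (33.3%) scored 1000 or more, 18 scored under 200 and 20 were intronic. Over all annotated regions 8.35% scored 1000 or more and 75.5% under 200, and over all regions 0.227% and 89.6%. Of the 10 strong ones, 9 were annotated for MLP vs. MLP-F, that is, picked for this same comparison. The others were annotated for their MLP vs. C score. The groups took in 28 annotated genes (7.73% of 362), against 1.46% of 23154 protein-coding RefSeq genes, but they were drawn up with the annotation known, so nothing is read from these shares. No gene of the hepatocyte group (29 genes) or the blood cell group (24 genes) was annotated.

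Genes of T cell and immune regulation had the most annotated regions, 10 at 9 of 51 genes (median score 136). Cd28 (1987) and Orai1, the pore of the store-operated calcium channel (chromosome 12, 34631280 to 34632266, overlapping exon 3 on its 3′ side), with 1509 against 727 in MLP vs. C, were far above the others. Next came Nfatc2, a calcium-dependent transcription factor (204 and, at a second region, 52.9), and Bach2, a repressor in lymphocytes (168). The chromatin organizer Satb1 had 144 and Ptprc, the leukocyte phosphatase CD45, had 128 (upstream). The remaining genes were under 100. Tbx21, the regulator of type 1 helper cells, had 98.2 and the phosphatase Ptpn2 61.1. Ctla4, an inhibitory receptor, had 56.3 (downstream). In MLP vs. C these last 3 had 124, 128 and 122, the score for which they were annotated.

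In lipid metabolism 7 of 56 genes were annotated (median 168). The 3 strong ones were Acadm (3100), Gpam (2285) and Srebf2, the transcription factor of sterol synthesis (chromosome 7, intronic, 1275 against 1343 in MLP vs. C). The fatty acid elongase Elovl5 had 168 and Mttp, which loads lipid onto lipoproteins, had 110. Fgf21 (68.2, upstream) and the nuclear receptor Ppard (55.1) were near the lower limit of the list. They had 126 and 127 in MLP vs. C, the score for which they were annotated, so this contrast is in part fixed by that choice.

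Cell cycle genes were annotated at 7 regions of 6 of 50 genes (median 846). Groups were matched by the annotated name, and an entry given as CCND2_RAT (158) entered none. Cdc2l6, current symbol Cdk19, a kinase of the mediator complex (chromosome 20), had 1859 at one intronic region and 62.5 at another. Mre11a had 1718, Cep152, a protein of centriole duplication (chromosome 3), 1613, and the cyclin-dependent kinase Pftk1, now Cdk14, 846 against 1896 in MLP vs. C. Ccnd1, cyclin D1, had 185 (upstream), and the repressor E2f7 had 50.7 (upstream), close to the lowest score that the list holds. In insulin signalling Ppp2r5c, which directs a protein phosphatase to its substrates (chromosome 6, intronic), had 1758 and Enpp1 had 76.9.

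In the group of one-carbon metabolism and DNA methylation 2.08% of genes were annotated, against 1.46% of all protein-coding RefSeq genes. Mtr, methionine synthase, which passes the methyl group of folate to homocysteine, was the only one of 48 (chromosome 17, 68832778 to 68833250, intronic), with 168 against 129 in MLP vs. C. In the polycomb and trithorax group Sfmbt1 was joined by Setd7, a lysine methyltransferase, whose intronic region on chromosome 2 had 162 in MLP vs. MLP-F, 1093 in MLP vs. C and 154 in MLP-F vs. C. Setd7 thus had similar scores in both comparisons that involve MLP-F.

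The 5 loci that the study also examined by bisulphite sequencing were divided between listed and unlisted. Sfmbt1 had the high score given above, but the paper reports that it was the only locus where bisulphite sequencing did not bear out the difference between MLP and C. Agtrap, a protein that binds the angiotensin receptor (chromosome 5, 165156757 to 165157718, intronic), had 101 against 123 in MLP vs. C, and the Dnmt1 region (chromosome 8, 19965118 to 19965567) had 116 against 221. Neither was listed in MLP-F vs. C. The regions of Fgf5, a growth factor, and Mcm6, a subunit of the replicative helicase, were not listed in MLP vs. MLP-F and had 95.2 and 50.5 in MLP vs. C. A region overlapping that of Mcm6 was listed in MLP-F vs. C with 60.5.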

How the data were processed

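Genomic DNA of pooled livers was captured with a methyl-CpG binding domain and sequenced, with 1 library per group. The authors used Bowtie for alignment to rn4 and ran MACS on pairs of libraries, keeping regions with a score of at least 50. No version is stated in what was read. The score deposited for a region is 10 times the −log10 p, with no fold or read count. The libraries held 32741244 tags for MLP, 23087218 for MLP-F and 16008758 for C. The MLP library was 1.42 times as deep as the MLP-F library by these totals. Unique tags numbered 26145395 for MLP, 17306868 for MLP-F and 13322026 for C, a wider imbalance between MLP and MLP-F.

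Starts were converted to 1-based positions, chromosome length was taken as the largest end in any of the 3 lists, and regions were placed in bins by their midpoint. Overlap means at least 1 bp, and a score given from another list is that of the highest overlapping region there. Shares have 95% Wilson intervals and densities exact Poisson intervals, which cover counting error only. Gene names, places and repeat units came from the study's annotation tables by identical start and end, and 342 of 454 names were found in RefSeq. Scripts were tested on simulated data. Named were the 20 highest and 10 longest regions, the highest of each chromosome, the 10 densest bins, members of 9 gene groups and the bisulphite loci. Begain, Vti1a, Fam83b, Cops8 and the groups of close regions were named after their values were seen. The members and lists were chosen with earlier results of these data known. No sequence of rn4 was used. Python 3.11.15, numpy 2.4.6, pandas 2.3.3, SciPy 1.17.1 and matplotlib 3.10.9 were used.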

Additional observations from a re-analysis of the deposited data

Results flagged for a closer look

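Regions outside chromosomes 1 to 20 entered no comparison above. The MLP vs. MLP-F list held 1276 regions on chromosome X, with a median score of 93.8 and a highest score of 754. It held 783 on sequence not placed on a chromosome, with a median of 84.6 and a highest score of 1179. These counts are signal in sequence that was not used above, and there is no control level to set beside them.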

How the results depend on the processing

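No paired analysis was possible because each group had 1 library, and for the same reason no library could be left out. At a score of at least 100 or 200, 11489 and 3280 regions remained. The median length was then 837 and 938.5 bp, the share of 1 kb or longer 31.7% and 42.6%, the median gap 118864 and 412998 bp, and the share of gaps of 10 kb or less 10.1% and 5.34%. Chromosome 12 stayed densest, at 9.53 and 2.54 per Mb. The lowest density, 3.44 and 0.806 per Mb, was on chromosome 15 in place of chromosome 2. The share of regions in dense bins rose to 5.94% and 8.60%. Of the 32 dense bins at each limit, 19 and 11 were among the 28 of the whole list. Regions joined when 1 kb or less apart gave a median length of 734 bp, 24.0% of 1 kb or longer, a median gap of 43478 bp, 17.3% of gaps of 10 kb or less and 3.97% of regions in dense bins. With all sequences of the list, 22.3% were 1 kb or longer and the median gap was 42168.5 bp. Bins of 2 Mb and of 500 kb gave 15 and 72 dense bins, and the smaller ones held 5.83% of regions. Bins shifted by 500 kb held 3.97%, and bins ranked by bp covered 3.81%. The other 14 of 42 alternatives moved a value by less than its interval or, for counts, by less than 1.5 times. Those among them that count dense bins could hardly move, since the percentile sets that count. The lists hold no read counts, so the effect of depth on the calls was not tested.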
